A study of Mus musculus with 41 samples.

Results

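The genes described here are 9 components and transcriptional targets of YAP and TAZ signalling, namely Yap1, Wwtr1, Tead1, Ccn1, Ccn2, Ankrd1, Amotl2, Lats2 and Ajuba. They were found by symbol among the probe sets that name 1 gene, where they have 22 of 34958 probe sets, and they are 9 of 18194 genes on the array. All 9 genes were tested, each through the probe set with its highest mean, and 19 of their 22 probe sets passed the filter on low values. One more probe set that names Lats2 together with a second gene was left out.

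RNA was measured in 41 melanomas of iBIP mice with Affymetrix arrays, on which a gene is read by 1 or more probe sets. In the iBIP strain a doxycycline (dox) inducible mutant BRAF transgene drives melanoma on a background known to lack Cdkn2a, and removing dox from the water switches the transgene off. The labels name the strain and the days off dox but not the promoters that drive the switch, so every group shares the strain's alleles and the labels separate the groups by days off dox alone. Tumours were trimmed of skin and macrodissected, and the labels do not say that each came from a separate mouse, so p values measure the spread between these tumours.

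The 41 tumours comprised 4 still on dox (day 0), 7 taken 1 day after withdrawal, 5 after 2 days, 6 after 3 days, 4 after 6 days, 3 after 9 days, 1 each after 16 and 29 days, and 10 late tumours. The late tumours had been off dox for 63, 77, 90, 121, 136 or 163 days. The animals' age was not given. Values are log2 intensities, and each difference is a log2 ratio with its standard error (SE) on the scale of log2(intensity + 16), which understates changes of dim genes. A gene was called changed when limma's adjusted p over all 14319 tested genes was under 0.05. In bulk tumours, fewer cells of a type and less RNA per cell cannot be told apart.

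YAP (gene Yap1) and TAZ (gene Wwtr1) are coactivators without a DNA-binding domain that enter the nucleus and act through TEAD transcription factors. The Hippo kinases, ending in LATS1 and LATS2, phosphorylate both proteins and keep them in the cytoplasm. Genes such as Ccn1, Ccn2, Ankrd1, Amotl2 and Lats2 are textbook targets, and in BRAF-mutant melanoma YAP activity is known as one route by which cells tolerate loss of BRAF signalling. Arrays measure mRNA and do not read phosphorylation or location of these proteins.

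Some facts about the tumours bear on several results. Defining melanocyte lineage genes were present unevenly: Sox10 ranged from 8.30 to 11.28 and Mitf from 7.24 to 9.82, whereas Tyr did not pass the filter on low values and the medians of Mlana and Tyrp1 were 5.41 and 5.56. Spike-in controls put the arrays into 3 sets that follow the groups. Every day 2, day 3 and day 6 array and 1 day 1 array formed set 1, another 6 day 1 arrays and 8 late ones formed set 2, and the arrays of days 0, 9, 16 and 29 with 2 late ones formed set 3. Days 1, 2, 3 and 6 therefore shared no set with day 0, and for them group and set cannot be told apart except through tumours that link the sets. Sets 2 and 3 are linked by the late tumours. Set 1 is linked to the others only by its 1 day 1 array, replicate 4. Every value below for days 2, 3 and 6 from a fit blocked by spike-in set therefore rests on that single tumour. The level of the 3′ Gapdh control minus that of its 5′ control, here the Gapdh gap and a measure of RNA degradation, averaged 2.62 ± 1.38 in late tumours (SD, n = 10) against 0.45 ± 0.12 at day 0 (SD, n = 4), and exceeded 2 in 8 late tumours and in 1 at day 9.

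Against day 0, few of the 9 genes passed the test at each time, and more of them fell than rose. At day 1, 1 gene rose and 2 fell, where 7.57% of all tested genes rose and 6.25% fell. At day 2, 0 rose and 2 fell (background 6.74% and 8.35%), and at day 3, 0 rose and 4 fell (9.74% and 11.6%). At day 6, 0 rose and 2 fell (5.74% and 6.46%). At day 9 limma called 0 of the 9, with 2 at an unadjusted p under 0.05, against 4.56% of all genes called.

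In late tumours against day 0, 1 rose and 3 fell, where 26.3% of all genes rose and 20.1% fell. Between late tumours and day 1, 2 rose and 1 fell (28.9% and 22.8%). Between day 6 and day 2 limma called 0 of the 9, and 0 of all genes (0%), with 0 of the 9 and 572 of all genes at an unadjusted p under 0.05. The late counts lie near the background of their comparisons. The median difference over the 9 genes was -0.37 at day 3 and 0.02 in late tumours, against -0.02 and 0.05 over all tested genes.

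Counted by probe set, 1 of the 19 rose and 4 fell at day 1, against 6.32% and 7.51% of all 25803 tested probe sets. At day 2 these were 1 and 5 (background 7.97% and 9.31%), at day 3 1 and 10 (11.7% and 12.8%), and by day 6 1 and 5 (8.05% and 9.05%). At day 9, 0 rose and 3 fell (2.24% and 2.98%). In late tumours 1 rose and 10 fell against day 0 (23.7% and 24.9%), and 2 rose and 7 fell against day 1 (25.8% and 25%). Between day 6 and day 2 limma called 0 of the 19, where 0.00388% of all probe sets were called. Probe sets of the same gene can vary together, so these counts do not stand for separate genes. The falls at day 3 were multiple probe sets each of Ccn1, Wwtr1 and Tead1, with a single one each of Yap1 and Amotl2. The Wwtr1 pair among them had r = 0.994 over the tumours.

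**Figure D1:**
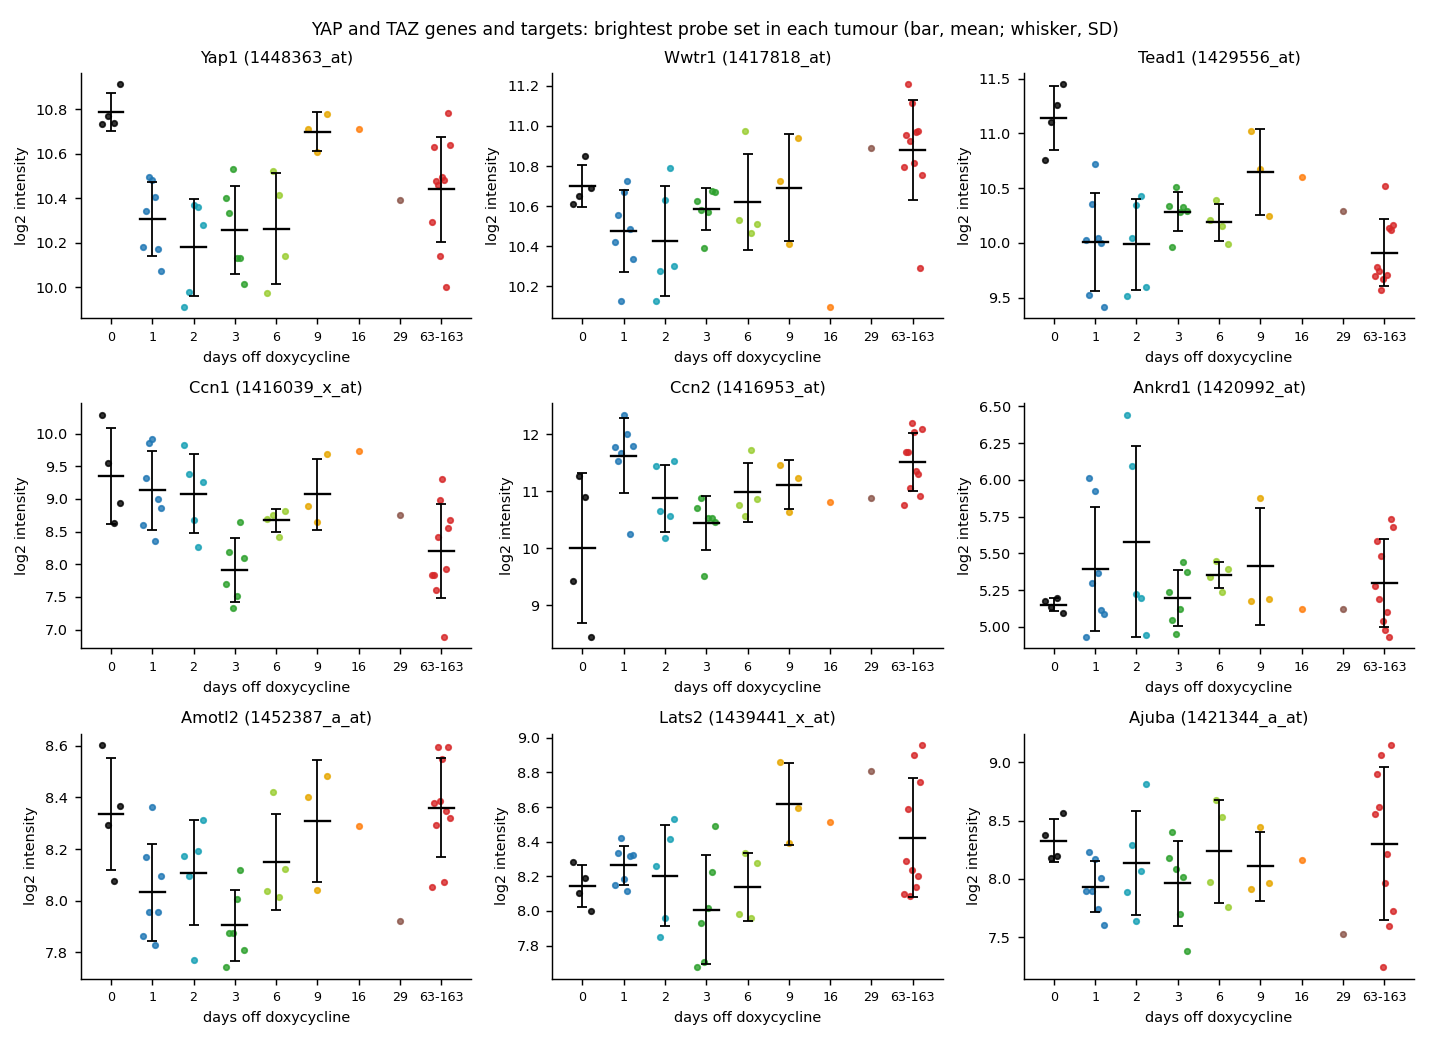
Log2 intensity of the brightest probe set of each gene (vertical axis, its own range in each panel) in every tumour by days off dox (horizontal axis); points are tumours, bars group means and whiskers SD. Tead1 lies below the day 0 tumours at days 1, 2, 3 and 6 and in late tumours, Ccn2 spans 8.43 to 11.27 at day 0 alone, and Ankrd1 stays between 4.93 and 6.44 in all tumours.

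Yap1, on chromosome 9, encodes the coactivator YAP. Its brightest probe set, 1448363_at, was modestly lower at days 1, 2, 3 and 6 than at day 0 and stood nearly at the day 0 level at day 9. This course coincides with the spike-in sets: days 0 and 9 are of set 3, and days 1, 2, 3 and 6 of sets 1 and 2. The 4 tumours at day 0 had 10.73, 10.77, 10.74 and 10.91. The 7 tumours of day 1 ran from 10.07 through a median of 10.34 to 10.50, and the 5 of day 2 had 9.91, 9.98, 10.37, 10.36 and 10.28. All day 1 and day 2 tumours lay below all day 0 tumours.

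At day 3 the lowest, median and highest Yap1 values of 6 tumours were 10.01, 10.23 and 10.53, and at day 6 the 4 tumours had 9.98, 10.52, 10.41 and 10.14. The 3 tumours of day 9 had 10.71, 10.61 and 10.78, the day 16 tumour 10.71 and the day 29 tumour 10.39. The 10 late tumours ran from 10.00 through 10.48 to 10.78. Days 3 and 6 did not overlap day 0, while days 9 and late did.

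The Yap1 difference from day 0 was -0.48 ± 0.13 at day 1 (SE; limma adjusted p = 0.0101), and on days 2 and 3 it was -0.61 ± 0.13 (adjusted p = 0.0028) and -0.53 ± 0.13 (adjusted p = 0.00406). It was -0.52 ± 0.14 at day 6 (adjusted p = 0.0138) and -0.35 ± 0.12 in late tumours (adjusted p = 0.0169). In a fit with a block for the spike-in set these differences were not called, at -0.17 (adjusted p = 0.603), -0.47 (adjusted p = 0.452), -0.39 (adjusted p = 0.534), -0.39 (adjusted p = 0.566) and -0.08 (adjusted p = 0.767). Without day 0 replicate 4, the highest day 0 tumour, the calls at days 1 and 6 and in late tumours were lost (adjusted p = 0.0537, 0.0565 and 0.0662), and the day 6 call also without day 6 replicate 1 (adjusted p = 0.0685). In order of group mean, day 0 stood above day 9 and day 9 above the late tumours by more than the larger SD, and the remaining neighbours (late, days 1, 6, 3 and 2) did not differ beyond theirs.

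Macrophage markers moved opposite to Yap1. Over 41 tumours, Yap1 and the mean of 10 macrophage markers had Pearson's r = -0.623 (permutation p = 4e-05, adjusted 0.00084 over 63 relations of 9 genes with 7 marker lists) and Spearman's rho = -0.636 (permutation p = 2e-05, adjusted 0.00063). The value was -0.571 after removing group means and -0.562 without the 2 tumours farthest from the median marker level. Here and below, the permutations shuffled the 41 tumours freely across day groups and spike-in sets. The permutation p values therefore take in shifts between groups and do not measure a relation within groups. The summed intensity of the 10 markers was 23800 to 37300 on day 1, 23800 to 42600 on day 2, 30200 to 38600 on day 3 and 28700 to 37500 on day 6, against 6530 to 17200 at day 0. In late tumours, where Yap1 was called lower, the sum was 9460 to 19300 and overlapped day 0, and in the day 9 tumours, whose Yap1 was near the day 0 level, it was 18100 to 28100 and above all day 0 tumours. All macrophage markers passed the filter. Melanocyte markers moved with Yap1 (r = 0.39, adjusted permutation p = 0.0329), with r = 0.499 after removing group means. The part of both lists in the Yap1 result was not tested.

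The second Yap1 probe set, 1416487_a_at, had another course. It averaged 7.47 ± 0.14 on dox (SD, n = 4), was lower on day 1 at 6.90 ± 0.34 (SD, n = 7), and stood on days 2, 3 and 6 at 7.36 ± 0.24, 7.40 ± 0.31 and 7.60 ± 0.32 (SD, n = 5, 6 and 4). It then averaged 6.72 ± 0.26 at day 9 (SD, n = 3) and 6.45 ± 0.24 in late tumours (SD, n = 10). The 2 Yap1 probe sets hardly varied together, with r = -0.036 and rho = -0.071 over 41 tumours, given as a description.

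Probe set 1416487_a_at differed from day 0 by -0.57 ± 0.17 at day 1 (limma adjusted p = 0.022 over 25803 probe sets), by -0.75 ± 0.21 at day 9 (adjusted p = 0.0282) and by -1.03 ± 0.16 in late tumours (adjusted p = 4.83e-06), and was not called at days 2, 3 and 6. The highest late value, 6.67, lay below the lowest day 0 value, 7.33. The late difference remained called within spike-in set 3, at -1.15 (adjusted p = 0.00701), and without the arrays of Gapdh gap over 2, at -0.88 (adjusted p = 0.00849). Each of these fits kept 2 of the 10 late tumours. In set 3 they were replicates 9 and 10, with gaps of 2.41 and 4.41. Without the high-gap arrays they were replicates 5 and 8, both of set 2, which holds no day 0 array. The day 1 call was lost without day 0 replicate 1 (adjusted p = 0.0762) or replicate 4 (adjusted p = 0.0721), and the day 9 call without arrays of Gapdh gap over 2, at -0.68 (adjusted p = 0.219), or when 1 of 4 tumours was left out, replicates 1 and 4 of day 0 and replicates 1 and 3 of day 9 (adjusted p up to 0.255). The Gapdh gap had r = -0.738 with 1416487_a_at across the 41 tumours and -0.484 within the 10 late ones, against 0.369 and 0.714 for 1448363_at, as a description, and its part in these differences was not tested beyond the values without the high-gap arrays.

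**Figure D2:**
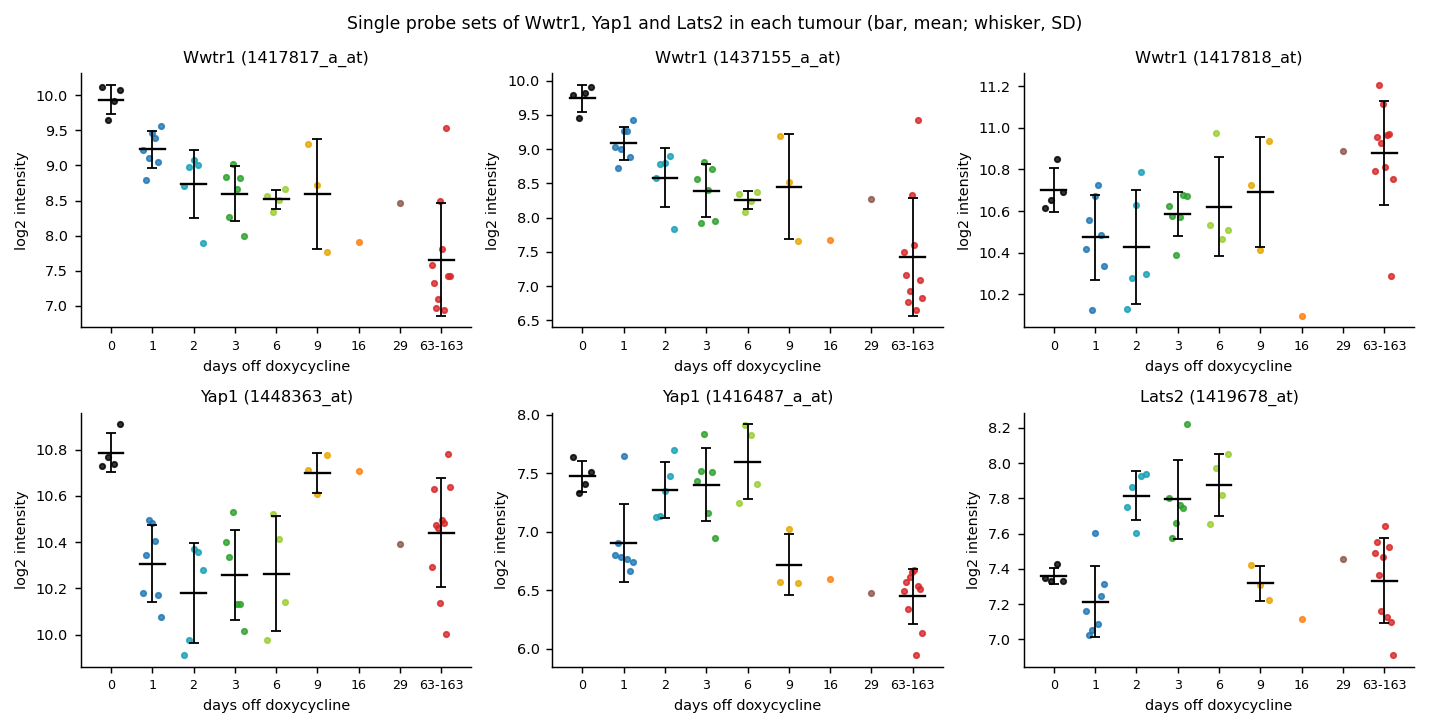
Log2 intensity (vertical axis) of single probe sets of Wwtr1, Yap1 and Lats2 in every tumour by days off dox (horizontal axis); points are tumours, bars means and whiskers SD. Wwtr1 probe sets 1417817_a_at and 1437155_a_at average 7.66 and 7.43 in late tumours against 9.94 and 9.74 at day 0, while 1417818_at averages 10.88 and 10.70.

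Wwtr1, on chromosome 3, encodes TAZ, the paralogue of YAP. Its 3 probe sets gave 2 opposed pictures. The brightest, 1417818_at, hardly moved, whereas 1417817_a_at and 1437155_a_at were far lower in late tumours. These last 2 followed each other closely (r = 0.994 over 41 tumours) and ran weakly opposite to 1417818_at (r = -0.26 and -0.249).

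In 1417818_at the 4 day 0 tumours had 10.61, 10.65, 10.85 and 10.69. The 7 day 1 tumours ran from 10.13 through 10.49 to 10.72, and the 10 late tumours from 10.29 through 10.94 to 11.21. These ranges overlap. No difference from day 0 passed the test, and late tumours exceeded day 1 by 0.41 ± 0.11 (limma adjusted p = 0.00203). Fibroblast markers rose and fell with 1417818_at across the 41 tumours (r = 0.506, permutation p = 0.0008, adjusted 0.00677; rho = 0.538, permutation p = 0.00041, adjusted 0.00423), with r = 0.466 after removing group means and 0.566 without the 2 farthest tumours. Macrophage markers ran opposite to it (r = -0.494, permutation p = 0.00114, adjusted 0.00794; rho = -0.524, permutation p = 0.00047, adjusted 0.00423), with r = -0.134 after removing group means and -0.522 without the 2 farthest. The fibroblast sum was 42900 to 78900 in late tumours against 44600 to 61900 at day 1, and the macrophage sum 9460 to 19300 against 23800 to 37300. The fibroblast list was split in this comparison. Of its 10 genes 4 were called higher and 2 lower (Thy1 at -1.52 and Pdgfrb at -0.67), where 28.9% of all genes rose and 22.8% fell. Melanocyte and Schwann cell markers had r = 0.441 and 0.379 with it (adjusted permutation p = 0.0185 and 0.0398), and 0.0674 and 0.236 after removing group means. The part of all these markers in the Wwtr1 difference was not tested. The group means, highest to lowest, were those of late tumours, days 0, 9, 6, 3, 1 and 2, and no neighbours differed by more than the larger SD.

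In 1417817_a_at the day 0 tumours had 10.11, 9.65, 9.91 and 10.08. At day 1 the values ran from 8.80 through 9.22 to 9.57, at day 2 they were 8.71, 8.97, 9.07, 9.01 and 7.90, and at day 3 they ran from 7.99 through 8.74 to 9.01. All tumours of days 1, 2 and 3 lay below all day 0 tumours. The day 6 tumours had 8.56, 8.34, 8.51 and 8.66, the day 9 tumours 9.31, 8.73 and 7.76, and the days 16 and 29 tumours 7.91 and 8.47. Late tumours ran from 6.94 through 7.42 to 9.53, again below day 0 without overlap.

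The difference of 1417817_a_at from day 0 was not called at day 1 (-0.71 ± 0.33, limma adjusted p = 0.142). On days 2, 3 and 6 it was -1.20 ± 0.35 (adjusted p = 0.0159), -1.34 ± 0.34 (adjusted p = 0.00415) and -1.42 ± 0.37 (adjusted p = 0.00756), and at day 9 -1.34 ± 0.40 (adjusted p = 0.0421). The day 2 call was lost without day 2 replicate 5 (adjusted p = 0.0655) or day 0 replicate 4 (adjusted p = 0.0505), and the day 9 call without day 9 replicate 3 (adjusted p = 0.455) or day 0 replicate 1, 3 or 4. In late tumours it was -2.28 ± 0.31 (adjusted p = 6.07e-07) against day 0 and -1.57 ± 0.26 (adjusted p = 8.91e-06) against day 1. Probe set 1437155_a_at gave -2.31 ± 0.32 (adjusted p = 7.2e-07) and -1.66 ± 0.26 (adjusted p = 6.13e-06) in the same comparisons. In the fit blocked by spike-in set the falls of 1417817_a_at at days 2, 3 and 6 were -1.77, -1.90 and -1.98 and not called (adjusted p = 0.244, 0.198 and 0.195).

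The Gapdh gap ran opposite to these 2 probe sets. Across the 41 tumours, which share day groups and arrays, the Gapdh gap had r = -0.722 with 1417817_a_at and -0.732 with 1437155_a_at, and within the 10 late tumours -0.865 and -0.901, against -0.06 for 1417818_at. The late tumours with a gap under 2, replicates 5 and 8, had 8.50 and 9.53 in 1417817_a_at and were the highest of the 10. Without arrays of gap over 2 the late difference was -0.92 against day 0 (limma adjusted p = 0.0256) and -0.21 against day 1 (adjusted p = 0.627), and with the gap as a covariate -1.14 (adjusted p = 0.00194) and -0.46 (adjusted p = 0.146). The files do not give where on the transcript each probe set lies.

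**Figure D3:**
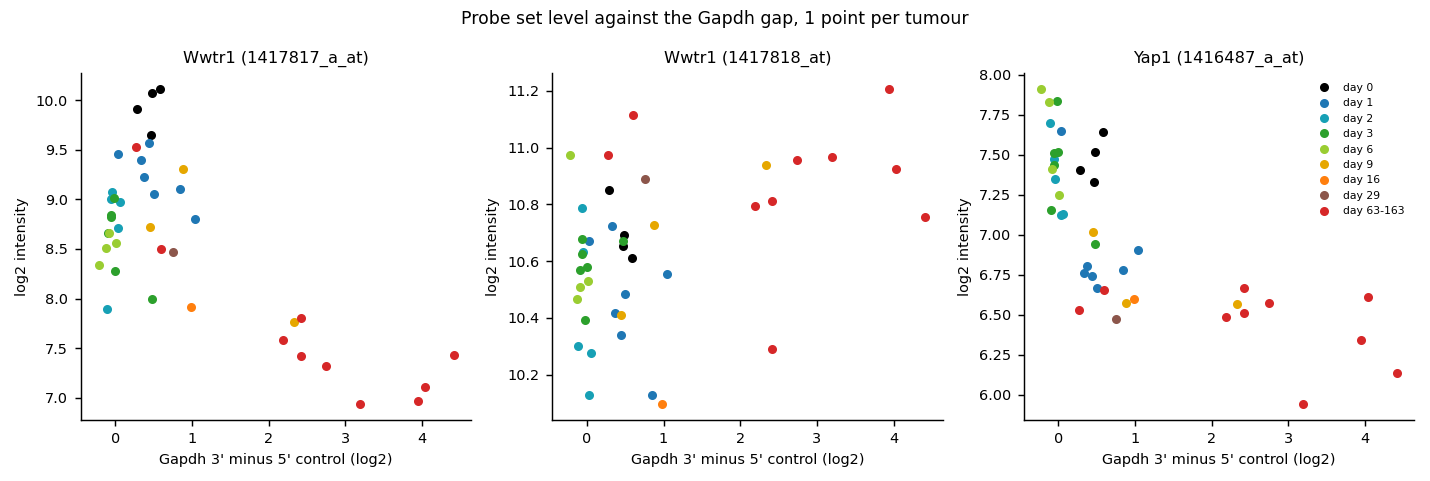
Log2 intensity of 2 Wwtr1 probe sets and the second Yap1 probe set (vertical axes) against the Gapdh 3′ minus 5′ gap (log2, horizontal axis), 1 point per tumour, coloured by days off dox. The 2 late tumours with a gap under 2 have the highest late values of 1417817_a_at, 8.50 and 9.53, and in that probe set the day 0 tumours lie above those of every other day.

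Tead1, on chromosome 7, encodes a DNA-binding TEAD factor through which YAP and TAZ act. It fell against day 0 at days 1, 2, 3 and 6 and in late tumours. The 4 day 0 tumours had 10.76, 11.11, 11.26 and 11.45. The 7 day 1 tumours ran from 9.41 through 10.02 to 10.72, the 5 of day 2 had 9.52, 10.04, 10.35, 10.42 and 9.60, and the 6 of day 3 ran from 9.96 through 10.31 to 10.51. All 18 of these tumours lay below all day 0 tumours.

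At day 6 the Tead1 values were 10.21, 10.39, 10.16 and 9.99, at day 9 11.02, 10.68 and 10.24, and at days 16 and 29 10.60 and 10.29. The 10 late tumours ran from 9.57 through 9.76 to 10.52, so day 6 and late tumours did not overlap day 0, and day 9 did. The difference from day 0 was -1.13 ± 0.20 at day 1 (SE; limma adjusted p = 0.00052) and -1.16 ± 0.22 at day 2 (adjusted p = 0.000707). On days 3 and 6 it was -0.86 ± 0.21 (adjusted p = 0.00404) and -0.96 ± 0.23 (adjusted p = 0.00595). In late tumours it was -1.23 ± 0.19 (adjusted p = 5.4e-06), and at day 9 -0.50 ± 0.25 was not called (adjusted p = 0.24).

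Tead1 kept its call within spike-in set 3, where 2 late tumours differed from 4 day 0 tumours by -1.003 (limma adjusted p = 0.0297). With the set as a block it was called at day 1 (-0.96, adjusted p = 0.0378) and not at days 2, 3 and 6, where the larger differences of -1.69, -1.39 and -1.49 had adjusted p = 0.066, 0.105 and 0.107. The dimmer probe set 1423434_at fell at the same times, with differences of -0.64 ± 0.15 at day 1 (adjusted p = 0.00491) and -0.71 ± 0.14 in late tumours (adjusted p = 0.000126), and also at day 9 (-0.61 ± 0.18, adjusted p = 0.045), a call that was lost without day 9 replicate 3 (-0.44, adjusted p = 0.443) or without day 0 replicate 1, 2 or 3. In set 3 alone its late difference of -0.42 was not called (adjusted p = 0.168). Only day 0 and day 9 differed as neighbours in the order of Tead1 means by more than the larger SD. Skeletal muscle and Schwann cell markers ran opposite to Tead1, with r = -0.411 and -0.373 over 41 tumours (adjusted permutation p = 0.0283 and 0.0418), and -0.293 and 0.18 after removing group means. Their part in the Tead1 falls was not tested.

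The TEAD partners fixed beside it, Tead2, Tead3 and Tead4 with the TEAD cofactors Vgll2, Vgll3 and Vgll4, gave 1 rise and 3 falls of 6 tested genes in late tumours against day 0, where 26.3% of all genes rose and 20.1% fell. Vgll1 did not pass the filter. Tead2 averaged 6.58 ± 0.33 in late tumours against 8.04 ± 0.43 at day 0 (SD), a difference of -1.46 ± 0.19 (SE; limma adjusted p = 4.1e-07). Tead4 differed by -0.87 ± 0.11 (adjusted p = 3.02e-07), Vgll4, a competitor of YAP for TEAD, by -0.68 ± 0.18 (adjusted p = 0.00181), and Vgll3, another TEAD cofactor, by 0.66 ± 0.27 (adjusted p = 0.04). The Vgll3 call was lost on leaving out any of 5 single tumours (replicates 1 and 4 of day 0, and late replicates 3, 6 and 10), with adjusted p up to 0.201, and that of Vgll4 with the spike-in block (-0.48, adjusted p = 0.159). At day 3 Tead2 (-1.08), Tead4 (-0.67) and Vgll4 (-0.52, adjusted p = 0.0499) were called lower, against 11.6% of all genes. In the fit blocked by spike-in set Tead2 and Vgll4 turned to 0.10 and 0.022 at day 3, and Tead4 was -0.68, none of them called (adjusted p = 0.945, 0.988 and 0.233). The day 3 call of Vgll4 was also lost without any of 7 single tumours (day 0 replicates 1, 3 and 4, day 3 replicates 1, 2, 5 and 6), with adjusted p up to 0.142.

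Promoter sequences show the short DNA word that TEAD factors are known to bind, GGAATG, in the genes' start regions. The word was searched on both strands, as GGAATG or its reverse complement CATTCC, from 250 bases before to 50 bases after each start in RefSeq's GRCm38.p6 promoters. It was present for all 7 of the 9 genes that have an entry there, and in 16.6% of all 27025 genes with an entry (14.7% of 32851 promoters). The match is a description of letters and not a binding site. Tead1 and Ccn2 were not searched. The windows of 60 bases below are given on the gene's strand with the word in capitals, for the coactivator Yap1, 3 targets and the kinase Lats2, whose values can be read beside them.
Yap1, chr9:8004705-8004764, minus strand: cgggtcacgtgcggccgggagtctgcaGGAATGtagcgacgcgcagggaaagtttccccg
Ccn1, chr3:145650056-145650115, minus strand: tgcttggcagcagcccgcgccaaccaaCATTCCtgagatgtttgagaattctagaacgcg
Ankrd1, chr19:36119935-36119994, minus strand: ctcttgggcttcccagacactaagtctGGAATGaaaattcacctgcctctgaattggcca
Amotl2, chr9:102717712-102717771, plus strand: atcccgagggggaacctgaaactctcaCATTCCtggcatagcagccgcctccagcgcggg
Lats2, chr14:57746087-57746146, minus strand: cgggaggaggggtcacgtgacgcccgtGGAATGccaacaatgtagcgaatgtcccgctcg
The word begins 141 bases before the start in Yap1, 103 in Ccn1, 123 in Ankrd1 and 65 in Amotl2, and 4 bases after it in Lats2. Ankrd1 holds another copy 210 bases before its start, and the window at the other Lats2 start holds none. Wwtr1 has 1 such word, 170 or 136 bases before its 2 starts, and Ajuba has 2, at 164 and 186 bases before its start. Genes holding the word did not share a course: Ccn1 fell, Ankrd1 was dim throughout and Lats2 was not called through its brightest probe set.

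Ccn1, on chromosome 3, encodes a secreted matrix protein (CYR61) and is an early YAP target. It was lowest at day 3 and low again in late tumours, with large spread between tumours. The 4 day 0 tumours had 10.29, 9.54, 8.63 and 8.93 in probe set 1416039_x_at, whose suffix marks probes that may also match other transcripts. The 7 day 1 tumours ran from 8.35 through 9.00 to 9.91, and the 5 of day 2 had 9.82, 9.38, 8.68, 8.27 and 9.26. Days 1 and 2 overlapped day 0 throughout.

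The 6 day 3 tumours ran from 7.33 through 7.90 to 8.64 in Ccn1, the 4 of day 6 had 8.70, 8.76, 8.42 and 8.81, and the 3 of day 9 had 8.89, 8.64 and 9.68. The day 16 tumour had 9.73 and the day 29 tumour 8.75. The 10 late tumours ran from 6.88 through 8.17 to 9.30. The highest day 3 tumour just reached the lowest day 0 tumour, and late tumours overlapped day 0.

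The Ccn1 difference was -1.44 ± 0.38 at day 3 (limma adjusted p = 0.00699) and -1.15 ± 0.35 in late tumours (adjusted p = 0.00703) against day 0, and -0.93 ± 0.29 in late tumours against day 1 (adjusted p = 0.00762). All 4 Ccn1 probe sets were called in each of these comparisons, from -1.16 to -1.56 at day 3 and from -1.15 to -1.62 in late tumours against day 0. Their pairwise r ran from 0.815 to 0.992, the highest between 1442340_x_at and 1457823_at. Both calls against day 0 were lost without day 0 replicate 1, the highest tumour, at -1.12 (adjusted p = 0.0533) and -0.84 (adjusted p = 0.0718). Without the same tumour the day 3 calls of the other 3 probe sets were lost too, and those in late tumours of 1438133_a_at and 1457823_at. Against day 1, the call of 1438133_a_at was lost without day 1 replicate 3 or 4. In the fit blocked by spike-in set no Ccn1 probe set was called at day 3. Within spike-in set 3 the late difference was -0.74 (adjusted p = 0.287), and without arrays of Gapdh gap over 2 it was -0.90 (adjusted p = 0.15). Against day 1 it was -0.68 without those arrays (adjusted p = 0.25). Within the late tumours the Gapdh gap had r = -0.705 with 1442340_x_at and -0.612 with 1457823_at. It had r = -0.166 with 1416039_x_at and -0.345 with 1438133_a_at, all as a description. Schwann cell and keratinocyte markers ran opposite to Ccn1, with r = -0.4 and -0.393 over 41 tumours (adjusted permutation p = 0.0322 and 0.0329) and -0.196 and -0.421 after removing group means, and their part was not tested.

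Ccn2, on chromosome 10, encodes the connective tissue growth factor CTGF, also a target and a matrix protein of the same family. Its late difference from day 0 had the opposite sign to that of Ccn1. The 4 day 0 tumours were widely spread, with 9.43, 11.27, 10.89 and 8.43. The 7 day 1 tumours ran from 10.25 through 11.78 to 12.35, and the 10 late tumours from 10.76 through 11.52 to 12.20. All day 1 tumours but the lowest lay above all day 0 tumours, and the late range overlapped only the 2 highest day 0 tumours.

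At day 2 the Ccn2 values were 11.45, 10.65, 10.18, 10.57 and 11.53, and at day 3 they ran from 9.51 through 10.53 to 10.89. At day 6 they were 10.75, 10.57, 11.73 and 10.87 and at day 9 11.47, 10.63 and 11.24, while the days 16 and 29 tumours had 10.82 and 10.88. The intermediate days all fell within or close to the wide day 0 range. Ccn2 was higher by 1.62 ± 0.40 at day 1 (limma adjusted p = 0.00606) and by 1.51 ± 0.38 in late tumours (adjusted p = 0.00142). Without day 0 replicate 4, the lowest day 0 tumour, the late difference was 0.98 (adjusted p = 0.0338) and the day 1 difference 1.10 (adjusted p = 0.084), and in the fit blocked by spike-in set 1.502 (adjusted p = 0.134).

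The late Ccn2 difference was 1.51 in spike-in set 3 alone (adjusted p = 0.193 in limma), 1.51 with the set as a block (adjusted p = 0.0383) and 1.75 without arrays of Gapdh gap over 2 (adjusted p = 0.0295). The fit in set 3 and that without high-gap arrays each kept 2 late tumours. Schwann cell markers moved with Ccn2 over 41 tumours (r = 0.481, permutation p = 0.00126, adjusted 0.00794; rho = 0.351, permutation p = 0.0241, adjusted 0.0659), with r = 0.212 after removing group means and 0.264 without the 2 farthest tumours. The summed intensity of the 7 measured markers was 5120 to 9240 at day 1 and 7760 to 17100 in late tumours, both above all day 0 tumours at 2330 to 4780. Fibroblast markers had r = 0.397 with Ccn2 (adjusted permutation p = 0.0322) and 0.209 after removing group means. The part of these markers in the Ccn2 rises was not tested. In the order of means (day 1, late, days 9, 6, 2, 3 and 0) no neighbours differed by more than the larger SD, and likewise for Ccn1 (days 0, 1, 2, 9, 6, late and 3). Across the 41 tumours Ccn1 and Ccn2 had r = 0.092 and rho = 0.136, and r = 0.244 after removing group means. Of the other CCN genes tested, the matricellular genes Ccn4 and Ccn3 fell in late tumours, with differences of -1.17 ± 0.36 (adjusted p = 0.00759) and -1.41 ± 0.59 (adjusted p = 0.0485), and Ccn5 rose by 0.85 ± 0.35 (adjusted p = 0.0473). The Ccn5 difference was 0.55 without day 0 replicate 4 (adjusted p = 0.255) and its call was lost without any of 8 other tumours, and that of Ccn3 was lost without any of 10 tumours, with -1.14 without day 0 replicate 1 (adjusted p = 0.168). Ccn6 did not pass the filter.

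**Figure D4:**
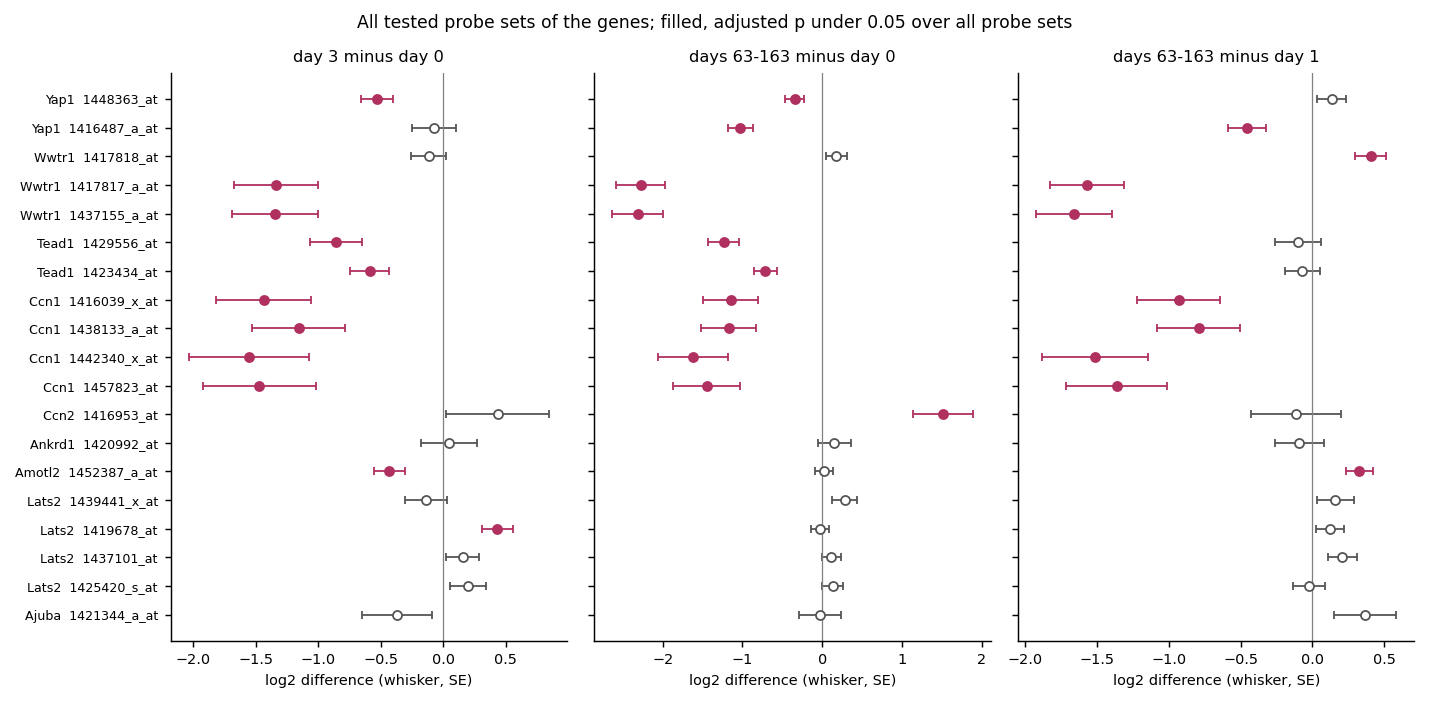
Log2 differences of the 19 tested probe sets (rows) with SE (whiskers) in 3 comparisons (panels): day 3 minus day 0, late (days 63 to 163) minus day 0, and late minus day 1; filled points were called at an adjusted p under 0.05 over all probe sets. The Ccn1 and Tead1 rows agree in sign within each gene against day 0, and the Wwtr1 rows part: 1417818_at is at 0.18 and the other 2 at -2.28 and -2.31 in late tumours against day 0.

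Ankrd1, on chromosome 19, encodes a nuclear ankyrin-repeat protein of muscle and is a standard reporter of YAP activity. It was dim in nearly all tumours: its brighter probe set, 1420992_at, exceeded its array's 40th percentile in 7 of 41 tumours. The day 0 tumours had 5.17, 5.14, 5.20 and 5.10. The highest values were 6.44 and 6.09 at day 2 and 6.01 and 5.93 at day 1, and the late range was 4.93 to 5.73. No difference passed the test, and at this level a change could have gone undetected.

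Skeletal muscle markers moved with Ankrd1. Over 41 tumours its r with the mean of 10 muscle markers was 0.556 (permutation p = 0.00042, adjusted 0.00493), its rho 0.543 (permutation p = 0.00032, adjusted 0.00423), and r was 0.602 after removing group means and 0.593 without the 2 farthest tumours. The summed marker intensity ran from 282 to 6340 at day 1, from 269 to 4700 at day 2 and from 242 to 12900 in late tumours, against 271 to 356 at day 0, and its part in the Ankrd1 values was not tested. Acta1, skeletal muscle actin, was among the 2 genes most like Ankrd1 (r = 0.685).

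Amotl2, on chromosome 9, encodes an angiomotin-like junction protein that is both a target of YAP and one that holds it outside the nucleus. Against day 0 it passed the test at day 3, where it fell, and at no other time. The day 0 tumours had 8.60, 8.29, 8.08 and 8.37. The 7 day 1 tumours ran from 7.83 through 7.96 to 8.36, the 5 of day 2 had 8.17, 8.09, 7.77, 8.19 and 8.31, and the 6 day 3 tumours ran from 7.74 through 7.88 to 8.12. At day 6 the values were 8.04, 8.42, 8.01 and 8.12, at day 9 8.40, 8.04 and 8.48, and the 10 late tumours ran from 8.05 through 8.36 to 8.60. Day 3 was the lowest group and overlapped day 0 only at its top tumour.

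Amotl2 differed by -0.43 ± 0.12 at day 3 (limma adjusted p = 0.0131) against day 0. That call was lost without day 0 replicate 1 (-0.34, adjusted p = 0.0785), with arrays centred on their medians (-0.35, adjusted p = 0.0548) and in the fit blocked by spike-in set (-0.69, adjusted p = 0.199). Late tumours exceeded day 1 by 0.33 ± 0.09 (adjusted p = 0.00455), and by 0.33 without arrays of Gapdh gap over 2 (adjusted p = 0.098). Neighbours in its order of means (late, days 0, 9, 6, 2, 1 and 3) did not differ beyond the larger SD.

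Endothelial markers moved with Amotl2. The r with the mean of 10 markers was 0.668 over 41 tumours (permutation p = 1e-05, the smallest the permutations can give; adjusted 0.00063), with rho = 0.624 (permutation p = 3e-05, adjusted 0.00063), 0.595 after removing group means and 0.627 without the 2 farthest tumours. The summed intensity was 2170 to 3550 in late tumours and 1210 to 2360 at day 1, and 1090 to 1660 at day 3 against 1070 to 3190 at day 0. The endothelial cadherin Cdh5 was among the 2 genes most like Amotl2 (r = 0.718). Macrophage markers ran opposite to Amotl2 (r = -0.531, adjusted permutation p = 0.00493), with -0.0968 after removing group means. Skeletal muscle, melanocyte and fibroblast markers had r = 0.446, 0.4 and 0.398 with Amotl2 (adjusted permutation p = 0.0185, 0.0322 and 0.0322). After removing group means these values were 0.351, 0.092 and 0.355. The part of all these lists in the Amotl2 result was not tested.

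**Figure D5:**
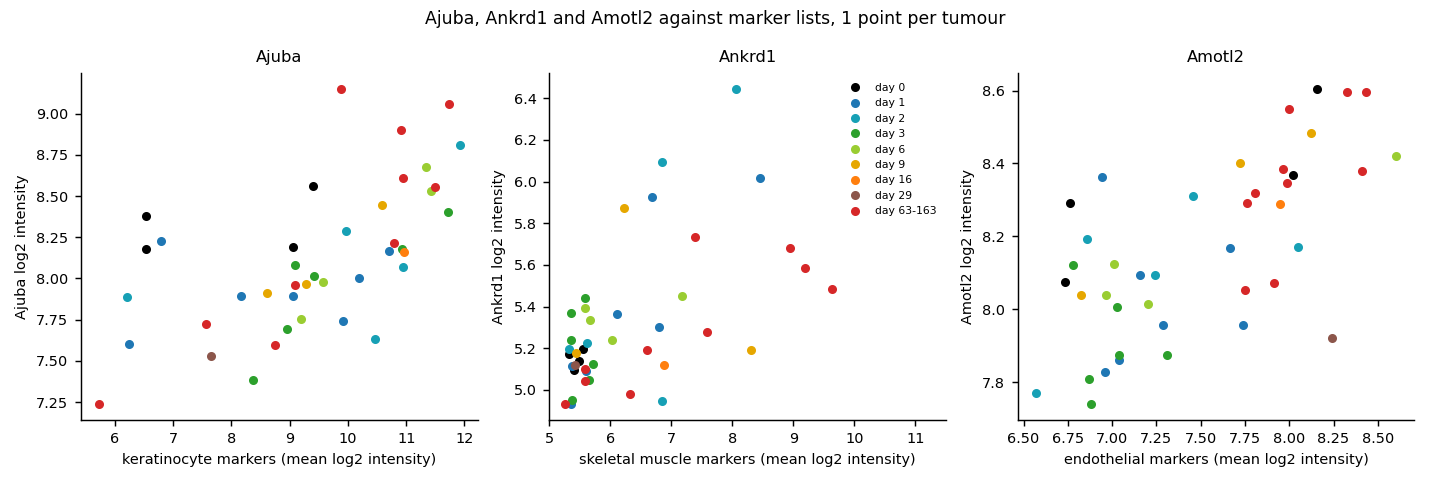
Log2 intensity of Ajuba, Ankrd1 and Amotl2 (vertical axes) against the mean log2 intensity of keratinocyte, skeletal muscle and endothelial markers (horizontal axes), 1 point per tumour, coloured by days off dox. The r over 41 tumours is 0.594, 0.556 and 0.668.

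Lats2, on chromosome 14, encodes a Hippo kinase that phosphorylates YAP and TAZ and is itself a target. The 4 day 0 tumours had 8.28, 8.10, 8.19 and 7.999 in 1439441_x_at, the brightest of its 6 probe sets, whose suffix also marks possible cross-matching. The 3 day 9 tumours had 8.86, 8.39 and 8.60, above all day 0 tumours, and the late tumours ran from 8.09 through 8.26 to 8.96. No comparison passed the test over all tumours. Late tumours were higher by 0.71 in spike-in set 3 alone (limma adjusted p = 0.0247) and by 0.45 when only those of days 90 to 163 entered (adjusted p = 0.0348), against 0.28 ± 0.15 with all 10 (adjusted p = 0.134). The set 3 value rests on 2 late tumours, replicates 9 and 10, with Gapdh gaps of 2.41 and 4.41. Both are also among the late tumours of days 90 to 163.

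The Lats2 probe set 1419678_at rose at days 2, 3 and 6 by 0.46 ± 0.13, 0.44 ± 0.13 and 0.51 ± 0.14 (limma adjusted p = 0.0159, 0.0122 and 0.0103). Its day 2 tumours had 7.75, 7.87, 7.60, 7.93 and 7.94, and its day 6 tumours 7.65, 7.97, 7.82 and 8.05, against 7.35, 7.33, 7.43 and 7.33 at day 0. The groups did not overlap. Days 2, 3 and 6 are the arrays of spike-in set 1, and with the set as a block the differences were -0.41, -0.43 and -0.35 and not called (adjusted p = 0.415 at day 2). The group means of the brightest probe set (days 9, late, 1, 2, 0, 6 and 3, highest first) had no neighbours apart by more than the larger SD. Schwann cell markers moved with the brightest Lats2 probe set (r = 0.53, adjusted permutation p = 0.00493, and rho = 0.46, adjusted 0.023), with r = 0.493 after removing group means and 0.554 without the 2 farthest tumours. Endothelial, macrophage and fibroblast markers had r = 0.42, -0.416 and 0.371 with it (adjusted permutation p = 0.0273, 0.0283 and 0.0418). After removing group means these values were 0.147, -0.194 and 0.205. The part of these lists was not tested. The Gapdh gap had r = -0.54 with 1419678_at, as a description. The 2 Lats2 probe sets 1426156_at and 1419679_at were above the 40th percentile in 0 arrays.

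Ajuba, on chromosome 14, encodes a LIM-domain protein that binds LATS kinases and restrains them. No comparison passed the test for Ajuba. The day 0 tumours had 8.38, 8.18, 8.19 and 8.56, the 7 day 1 tumours ran from 7.60 through 7.89 to 8.23, and the 10 late tumours spread from 7.24 through 8.38 to 9.15. The late SD of 0.66 was the largest of its 7 group SDs, and no neighbours in the order of means (days 0, late, 6, 2, 9, 3 and 1) differed by more than the larger SD.

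Keratinocyte markers moved with Ajuba. The r with the mean of 9 measured markers was 0.594 over 41 tumours (permutation p = 4e-05, adjusted 0.00084), with rho = 0.648 (permutation p = 1e-05, adjusted 0.00063), 0.675 after removing group means and 0.543 without the 2 farthest tumours. Their summed intensity ran from 644 to 28500 at day 1 and from 393 to 48700 in late tumours, against 891 to 14400 at day 0. Melanocyte and skeletal muscle markers also moved with Ajuba, with r = 0.505 and 0.458 (adjusted permutation p = 0.00677 and 0.0157), and 0.598 and 0.467 after removing group means. The epithelial genes Ap1m2 and Ppp1r13l were most like Ajuba (r = 0.827 and 0.808). The part of these marker lists in the Ajuba spread was not tested.

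The 9 genes did not move as one. The most alike pair was Yap1 and Tead1 (r = 0.582, rho = 0.564, and 0.365 after removing group means), and the most opposed was Tead1 and Ccn2 (r = -0.442, rho = -0.379), as a description over 41 tumours that share day groups and arrays. Ccn1 and Amotl2 had r = 0.378 over all tumours and 0.624 after removing group means. Outside the 9, the gene most like each was Tacc2 for Yap1 (r = 0.885), Bmpr1a for Wwtr1 (0.794), Irf2bpl for Tead1 (0.872), D430020J02Rik for Ccn1 (0.752) and Fmod for Ccn2 (0.736). It was Cd209b for Ankrd1 (0.693), Pde4d for Amotl2 (0.78) and Socs7 for Lats2 (0.783), each over 41 tumours.

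Of 20 tested regulators of the Hippo pathway, 1 rose and 3 fell in late tumours against day 0, where 26.3% of all genes rose and 20.1% fell. Their median difference was -0.04 against 0.05 over all genes, and Stk3 was not analysed here. The kinase Stk4 (MST1) was higher by 0.48 ± 0.17 (SE; limma adjusted p = 0.0197), but -0.077 as the mean of its probe sets (adjusted p = 0.601), and it was not called without arrays of Gapdh gap over 2 or without day 0 replicate 3 (adjusted p = 0.0645). Wtip, a LIM protein of the Ajuba family, differed by -0.72 ± 0.17 (adjusted p = 0.000987), the angiomotin Amotl1 by -0.50 ± 0.16 (adjusted p = 0.0113) and Wwc2, a KIBRA paralogue, by -0.46 ± 0.14 (adjusted p = 0.0097). Without arrays of Gapdh gap over 2 these 3 differences were -0.22, -0.35 and -0.22 and not called (adjusted p = 0.315, 0.207 and 0.327). At day 3, 0 rose and 3 fell, against 9.74% and 11.6% of all genes: Wtip (-0.58), Amotl1 (-0.51) and Wwc2 (-0.45). Each of these calls was lost with the spike-in block and without single tumours, with adjusted p up to 0.102 for Wtip (3 tumours, among them day 0 replicate 4), 0.109 for Amotl1 (7 tumours, among them day 0 replicate 4) and 0.106 for Wwc2 (6 tumours, among them day 0 replicate 1). At day 1, 1 rose and 6 fell, against 7.57% and 6.25%.

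Further genes of published YAP target signatures, 16 tested beside the 9, fell more often than they rose. In late tumours 3 rose and 6 fell, against 26.3% and 20.1% of all genes, with a median of -0.18 against 0.05. At day 3, 1 rose and 8 fell, against 9.74% and 11.6%, with a median of -0.42 against -0.02. In late tumours Crim1, a transmembrane regulator of BMP, differed by -1.85 ± 0.31 (limma adjusted p = 1.36e-05), the membrane repair protein Myof by -1.28 ± 0.16 (adjusted p = 1.63e-07) and the exchange factor Arhgef17 by -0.73 ± 0.13 (adjusted p = 4.98e-05). Gadd45a, a stress-induced growth arrest gene, was higher by 1.41 ± 0.26 (adjusted p = 5.01e-05). Without arrays of Gapdh gap over 2 the late Crim1 difference missed the threshold. At day 3 Crim1 (-1.37), Arhgef17 (-0.56), Dock5 (-0.54) and the growth factor Tgfb2 (-0.76) fell. None of these 4 was called with the spike-in block, and the call of Dock5 was lost without day 0 replicate 4 (adjusted p = 0.0774) and that of Tgfb2 without day 0 replicate 1 or 3 (adjusted p up to 0.0866). Foxf2 did not pass the filter.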

How the data were processed

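The authors deposited 1 intensity per probe set and array on a linear scale, and the submitters' processing notes name MAS5 and RMA without versions or roles. The genome build of the probe sets is not given in the sources used here, and arrays have no sequencing depth, so the number of arrays limits the precision. Deposited intensities were turned into log2(intensity + 16) and quantile normalised between the 41 arrays. Of 45101 probe sets, 34958 named 1 gene in the platform annotation, 932 several and 9211 none. Per gene the probe set of highest mean was kept, and genes above the 40th percentile of their array in at least 3 arrays were tested. All differences came from a single model in R 4.3.3 with limma 3.58.1, in which each group had its own mean, and Benjamini-Hochberg adjustment ran over all 14319 genes, or over 25803 probe sets where single probe sets are named. The script was tested on simulated data.

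The 9 genes and all gene lists were chosen with earlier results of these data known. Named were all 9 genes, called genes of lowest p from 5 lists in the late and day 3 comparisons (up to 4 per list, plus tested TEAD and CCN genes), and the tested genes most correlated with each of the 9. Alternatives were other scalings, pseudocounts, filters, summaries of probe sets, limma options, subsets of late days, each tumour left out, the Gapdh gap (over 2) and the spike-in set (log2 bioD under 12 for set 1; of the rest, dap under 9.4 against above it). Gene and promoter positions are RefSeq's on GRCm38.p6. Figures used matplotlib 3.10.9 in Python 3.11.15. A further allele of the strain is not reported here.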

Additional observations from a re-analysis of the deposited data

Results flagged for a closer look

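Among the 9 genes 54 groups of 4 to 10 tumours were tested for a tumour far from the rest of its group, and 5 were found, where chance gives about 1 in 20. In Wwtr1 (1417818_at) the lowest day 3 tumour, replicate 3, had 10.39, with the others of that day from 10.57 to 10.68. The highest day 6 tumour, replicate 2, had 10.98, against 10.47 to 10.53 for the others, and the lowest late tumour, replicate 9, had 10.29, against 10.76 to 11.21. In Ccn2, day 1 replicate 6 had 10.25, with the other 6 tumours from 11.53 to 12.35, and day 3 replicate 3 had 9.51, with the others from 10.47 to 10.89.

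The single tumours of days 16 and 29 entered no comparison. Wwtr1 was at 10.89 in the day 29 tumour, above the highest day 0 tumour at 10.85. Lats2 was at 8.52 in the day 16 tumour and 8.81 in the day 29 tumour, both above the highest day 0 tumour at 8.28. With 1 tumour a day these values have no replicate check.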

How the results depend on the processing

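No paired analysis was possible because tumours were numbered in accession order within each group, which pairs nothing. Counts of the 9 genes and their probe sets stayed within 1.5 times in 362 of 394 settings, and of 2229 settings of called differences 1952 kept the call, 270 lost it and 7 changed sign. Of 81 differences never called, 135 of 1910 settings changed sign.

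In a fit blocked by spike-in set, genes called were 0 at days 2, 3 and 6. In late tumours against day 0 they were 2 in set 3 alone. In late tumours against day 1 they were 1, both with the Gapdh gap as a covariate and without gaps over 2. With every probe set as its own test, a gene was counted when any of its probe sets was called, and not only its brightest. Counted in that way, genes called were 4 at day 2, 4 at day 6 and 3 at day 9. Probe sets called were 8 at day 1 with array weights, 1, 0 and 0 at days 2, 3 and 6 with the block, and at day 9 1 without the filter and 0 in set 3, with only both groups or without gaps over 2. In late tumours against day 0 they were 7 with the gap covariate, 5 in set 3 and 6 with the block, and against day 1 they were 2 with the covariate and 1 without gaps over 2. The share of all genes or probe sets called in the same settings is not given, here or with 1 tumour left out. These counts therefore cannot be read as a result about the 9 genes. The cause was not tested.

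Leaving out 1 tumour at a time, genes called ranged from 1 to 4 (day 1), 2 to 3 (day 2), 2 to 4 (day 3), 1 to 3 (day 6), 0 to 0 (day 9 and day 6 against day 2), 3 to 4 (late against day 0) and 3 to 4 (late against day 1). Probe sets ranged from 2 to 6, 4 to 7, 7 to 11, 5 to 7, 0 to 3, 8 to 11 and 8 to 10 in the same order, and 0 to 0 for day 6 against day 2.

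Among differences called in at least 1 setting, the following changed sign in some settings. Ajuba in late tumours against day 0 (-0.03) became 0.16 with array weights, 0.034 with median centring, 0.15 with days 63 and 77 only, 0.010 unnormalised and 0.11 in set 3 or with the block, and ranged from -0.12 to 0.091 with 1 tumour left out; against day 1 it was -0.52 without gaps over 2. Wwtr1 became -1.47 against day 0 and -0.94 against day 1 as the mean of its probe sets, and -0.18 in set 3 or with the block. Lats2 1419678_at became -0.41, -0.43 and -0.35 with the block at days 2, 3 and 6, Tead2 and Vgll4 0.10 and 0.022 at day 3 with the block, and Stk4 -0.077 in late tumours as the mean of its probe sets. No setting within 1 spike-in set exists for days 1, 2, 3 and 6 against day 0.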

Other observations

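Targets of SRF and its MRTF coactivators, which share some targets with YAP, were measured beside the 9 genes. Of 9 tested, 0 rose and 5 fell in late tumours against day 0, where 26.3% of all genes rose and 20.1% fell, with a median of -0.58 against 0.05. At day 3, 0 rose and 4 fell (9.74% and 11.6%), with a median of -0.64 against -0.02. The actin crosslinker Flna averaged 9.32 ± 0.34 in late tumours against 10.58 ± 0.13 at day 0 (SD), a difference of -1.25 ± 0.16 (SE; limma adjusted p = 4e-07). The tropomyosins Tpm1 and Tpm2 differed by -1.12 ± 0.25 (adjusted p = 0.00038) and -1.05 ± 0.24 (adjusted p = 0.000592), and the adhesion protein Vcl by -0.58 ± 0.14 (adjusted p = 0.000919). Without arrays of Gapdh gap over 2 the Tpm1 difference was -0.66 and not called (adjusted p = 0.189). At day 3 the factor Srf itself fell by 0.53 on the log2 scale (adjusted p = 0.025), with Vcl at -0.70, Tpm2 at -1.01 and Flna at -0.64. None of these 4 was called at day 3 in a fit blocked by spike-in set, and the Srf call was lost without day 0 replicate 4 (adjusted p = 0.105). Cnn1 did not pass the filter.

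The mean log2 level of 10 MAPK output genes, transcripts known to follow the pathway the transgene drives, was 7.83 ± 0.18 in late tumours against 9.09 ± 0.20 at day 0 (SD). Of the 10, 9 were called lower and 1, Epha4, higher by 0.49 (limma adjusted p = 0.0211), where 20.1% of all genes fell and 26.3% rose.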
